A study of Bos taurus with 16 samples.

Results

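The endometrium of 4 fertile cows at day 10 after parturition was compared with the endometrium of the same cows at the 3 later biopsies pooled, nominally days 30, 50 and 100. The samples were chosen by the day in their titles, and all 16 arrays of the study took part, 4 at day 10 and 12 later, with 1 array per cow and day. The true sampling days were 9 to 10 for the first biopsy and 29 to 30, 49 to 51 and 99 to 100 for the others. Each biopsy consisted of several tissue pieces cut from the uterine horns with forceps, and its total RNA was labelled with Cy3 and hybridised to a one-colour Agilent bovine array. The labels call all 4 animals fertile, and no treatment, breed or age is given in the sources used here. The question was which genes set early involution apart from every later time. A level below is the log2 processed signal of a probe relative to the percentile 75 of its array, and a difference is the mean level at day 10 minus the average of the 3 later day means, with cow as a block. Day 10 levels are listed in the order of cows 1 to 4.

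After calving the uterus returns to its resting size within weeks. The attachment sites of the placenta break down and slough, the collagen that accumulated in pregnancy is digested, bacteria that entered at calving meet neutrophils and macrophages, and the epithelium grows back over the bare stroma. Matrix metalloproteinases are zinc enzymes that cut the extracellular matrix. Among them MMP1 and MMP13 are collagenases, MMP3 is a stromelysin that also activates other members, and MMP12 is the elastase of macrophages. Macrophages take up and digest debris in lysosomes, while the regrown epithelium of the resting uterus carries glands and ciliated cells.

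The probes that report the main findings are shown so that the measured stretch of each gene is clear. Given are the first 30 of 60 bases, in the 5′ to 3′ direction, from the deposited scanner files, with positions on the array design's build, HGSC Btau_3.1. The first 4 belong to neighbouring protease genes on chromosome 15, and no run longer than 7 bases was shared between any pair of these 4 whole probes. The next 3 stand for the other genes higher at day 10 and the last 4 for the genes lower at day 10. The positions are chr15:4733287-4734269 on the plus strand for MMP3, chr15:4627334-4627393 plus for MMP13, chr15:4792583-4792641 plus for MMP1 and chr15:4717048-4717107 plus for MMP12. They are chr15:65665373-65665432 minus for PAMR1, chr7:51084103-51084162 minus for CD14 and chr7:60848894-60848950 minus for CSF1R. They are chr18:53385728-53385787 plus for HIF3A, chr13:62324606-62324665 plus for TTLL9, chr15:60867644-60867703 minus for MPPED2 and chr4:9698115-9698174 minus for CYP51A1.
MMP3: gtggaagattttccaggggttgaatcagag
MMP13: tggaaagcatttgagataacacttccagac
MMP1: acaacttcaggaatgtatgagcaaccacca
MMP12: tataatgtcctagcccaacgtgtcgttgaa
PAMR1: tggcattggccatatcacagagtggtcctt
CD14: aaattcacaacacccgcattatgtaagtaa
CSF1R: aactaacagtcacaaagtggaatgtccctg
HIF3A: tgctggctctgaaacccattaatctctaaa
TTLL9: ggagaaatgcagcaagttatacctgaggga
MPPED2: ttttctcaaaggccacgccattgtaaattg
CYP51A1: gtctcatgttaagctatttgtgaggccaaa

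Between 61.2% and 77.0% of an array's probes were well above background, and with 4 arrays a day the precision is limited by their number. The lowest share, 61.2%, was on the day 10 array of cow 1, whose smallest processed signal of 6.99 lay above the 1.67 to 2.03 of the other 3 day 10 arrays, so dim probes have a higher lower limit there. Each cow had a slide and a scan of its own, and cow, slide and scan cannot be told apart. The biopsies held the tissue named in the labels, since 19 of 24 tested markers of luminal and glandular epithelium and 18 of 21 of stromal fibroblasts were well above background on all 16 arrays. Smooth muscle, the tissue of the underlying wall, was present too, with 19 of 20 markers above background throughout. At day 10 the epithelial list level, the mean of its members relative to their 16-array means, was 0.79, -2.53, -0.81 and 0.80, and the smooth muscle level was -1.24, 1.53, 1.27 and -1.52. Cows 1 and 4 therefore gave the more epithelial day 10 biopsies and cows 2 and 3 the more muscular ones. The day 100 arrays of cows 1 and 2 lay at opposite ends, with epithelial levels of 2.63 and -3.50. Of the epithelial markers 0 of 24 differed between day 10 and later days in limma's test, with 1 at an unadjusted p under 0.05, and of the smooth muscle markers 1 of 20 did.

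Of 33174 probes tested, 4.78% differed between day 10 and the later days in limma's moderated test at an adjusted p under 0.05. Of the 12921 genes with a symbol among them, 687 or 5.32% differed, of which 464 were higher at day 10 (3.59% of the genes) and 223 were lower (1.73%). The genes that were higher included 6 matrix metalloproteinases, 17 of 20 tested macrophage markers, 16 of 45 lysosomal proteins and 9 of 28 complement genes. The genes that were lower included HIF3A, the cilia genes TTLL9 and CFAP47, 6 of 29 genes of cholesterol and fatty acid synthesis and the growth factor IGF2. The median difference was 1.71 for the genes called higher, 3.26-fold on the linear scale, and -1.58 for those called lower, 3.00-fold, against 0.01 over all genes tested. Among the genes called higher, 374 were above all 3 later arrays of the same cow in every cow, and 161 had all 4 day 10 levels above all 12 later levels. Over all genes tested, 200 showed that separation, 1.55%. Among the genes called lower, 148 were below the later arrays of the same cow in all 12 comparisons and 62 lay below all later levels. Of all genes, 113 or 0.875% lay below all later levels. The 12 within-cow comparisons were counted for called genes only. With cow as a block the call itself favours genes that differ the same way in each cow, so the 374 and 148 describe the called genes. Because whole tissue was measured, fewer cells of a type and less RNA per cell cannot be told apart in any of these differences.

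The differences at the 3 later days share the day 10 arrays and are given side by side. For the genes called higher the median difference was 1.57 against day 30, 1.58 against day 50 and 1.81 against day 100. For the genes called lower it was -1.05, -1.78 and -1.90, so the day 30 value lay nearest to 0. Taken among the later arrays alone, day 30 was below the mean of days 50 and 100 in 200 of the 223 genes called lower, with a median of -0.72 against 0.01 for all genes. Of the 464 genes called higher, 58.8% were above that mean at day 30, against 51.5% of all genes, with a median of 0.13. The mean smooth muscle level was 1.05 at day 30, -0.34 at day 50 and -0.73 at day 100. The mean epithelial level was -0.54, 0.89 and 0.09 on these days. The part of biopsy make-up in the day 30 values was not tested. No gene differed among the 3 later days in limma's moderated F test at an adjusted p under 0.05, although 1082 or 8.37% of the genes had an unadjusted p under 0.05, with 64 of those called higher and 93 of those called lower among them. Against each later day taken singly at the same threshold, 51 genes were higher at day 10 in all 3 comparisons and 0 were lower in all 3.

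**Figure D1:**
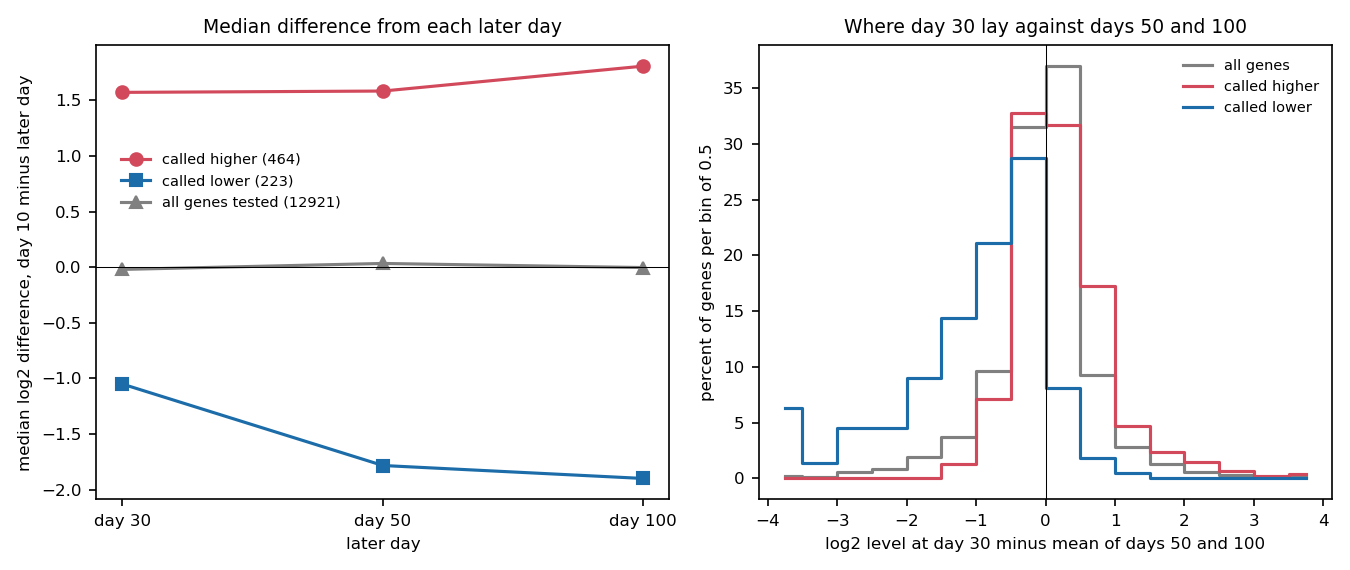
Left, the median log2 difference of day 10 against day 30, day 50 and day 100 for the genes called higher, the genes called lower and all genes tested; right, the distribution of day 30 minus the mean of days 50 and 100 for the same groups in bins of 0.5, with values beyond 4 in the end bins. The genes called lower lie mostly below 0 on the right, with a median of -0.72, while all genes centre at 0.01.

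How many genes were called rested on single cows and on day 50. Without cow 1 the numbers were 29 higher and 8 lower, without cow 2 they were 320 and 160, without cow 3 they were 123 and 21, and without cow 4 they were 81 and 19. Leaving out the day 50 arrays left 75 higher and 3 lower, while leaving out the day 100 arrays of cows 1 and 2, whose epithelial levels lay farthest apart, gave 779 and 581. Without cow as a block 4.11% of the probes were called, against 4.78% with it. With the smooth muscle and epithelial list levels as covariates 576 genes were called higher and 310 lower. This refit was not broken down by list or by day, so the part of biopsy make-up in single lists or days was not tested. Correcting the background with normexp gave 309 higher and 294 lower. Dim probes were also fitted with all levels under -4.91 raised to that value, which gave 413 genes higher and 202 lower. This value was the highest limit of detection of any array, that of day 10 of cow 1. A difference of a dim probe given below with this common floor is the more cautious one, and a probe that passed the filter only through the days where it is high had to differ. With the common floor S100A8, C2, FBLN7, ITGA8, WNT2, COL15A1, CD40, TBXAS1, STC1, IL12A, SQLE, FST, LRAT, F10, SUSD2 and GLI1 missed the threshold, at adjusted p from 0.0514 to 0.0712 and with similar differences. With normexp CD163, C5AR1, ALOX5, HAND2, VSTM1, PDGFRB, BANK1, NCOA3, IL10, CD4 and HSD17B4, all of which passed with the common floor, missed it at adjusted p from 0.0526 to 0.576. Within the cows the medians of the genes called higher were 2.10, 1.30, 1.25 and 1.93, and those of the genes called lower were -1.92, -1.21, -1.49 and -1.49.

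A total of 21 genes kept their call whichever cow was left out, and they were picked out after their values were seen. Of these 20 were higher at day 10, and in all 21 the day 10 levels lay apart from the 12 later ones, which their selection favours. They comprised the proteases MMP1, MMP3, MMP9, MMP12 and MMP13, the macrophage and sensing genes CD14, CSF1R, MPEG1, TLR7 and VSTM1, the secreted inflammatory regulators IL1RN and CCL3, and NOS2, the inducible nitric oxide synthase. PMEL, PAMR1, TRPA1, RAB15, DHRS9, SLC37A2 and RENBP completed the genes higher at day 10. MPPED2, a metallophosphoesterase, was the gene that was lower. Every other gene described here as higher or lower lost its call in at least 1 of these 4 refits. Without cow 1 no gene was called higher in the collagen, MHC class II, interferon, T and NK cell, B cell, prostaglandin, uterotonic, steroid, insulin-like growth factor, angiogenesis, hypoxia, WNT, fibroblast or smooth muscle list, and the counts without each cow are given beside lists with more calls.

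**Figure D2:**
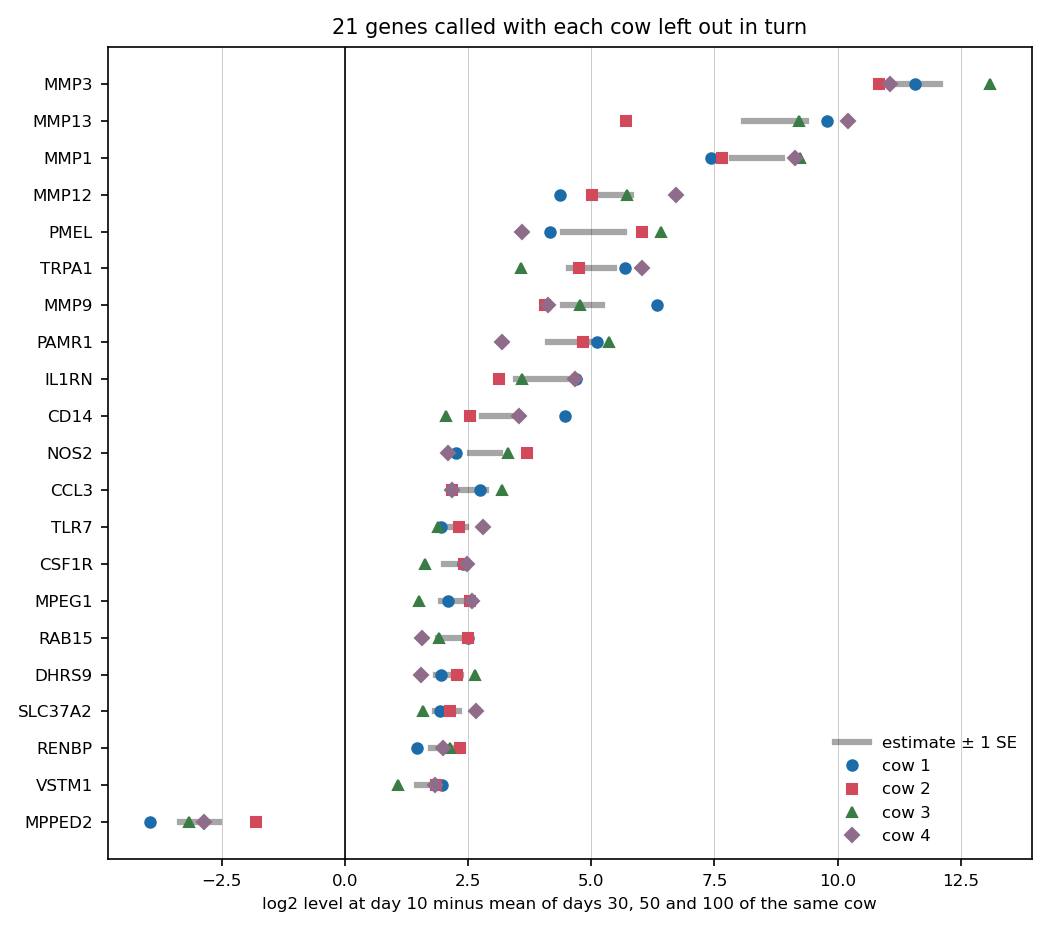
The 21 genes called with each cow left out in turn, with the log2 difference between day 10 and the mean of the 3 later arrays in each cow as points and the fitted difference ± 1 SE as a grey bar. Every cow lies on the same side of 0 in all 21 genes, which their selection favours. The fitted differences run from 11.64 for MMP3 to -2.94 for MPPED2.

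MMP3 had the largest difference of all genes. Its level at day 10 was 3.32, 3.08, 4.19 and 4.17, and over the later arrays it ran from -9.25 through a median of -8.22 to -6.20. The day 10 levels lay close together and far above every later level, only 1 of which was well above background. The difference was 11.64 ± 0.43 (SE, adjusted p = 1.28e-07), and with all dim values raised to a common floor it was 8.60. The other 3 tested MMP3 probes gave differences of 9.26 to 10.74, and all were called. MMP13 stood at 1.31, -1.65, 0.17 and 1.31 at day 10 and between -9.62 and -5.29 later, with a later median of -8.74. The lowest day 10 level, in cow 2, was still above the highest later one, and the difference was 8.72 ± 0.63 (adjusted p = 5.37e-05), or 5.20 with the common floor. Of its 12 later values 1 was well above background. The collagenase MMP1 was the member with the most signal later, well above background on 11 of 12 later arrays. Its day 10 levels were 1.61, 3.02, 4.18 and 4.24, its later levels ran from -7.21 through -4.91 to -3.79, and the difference was 8.36 ± 0.51 (adjusted p = 2.11e-05).

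MMP12, the macrophage elastase, was dimmer. It reached -3.85, -2.88, -2.83 and -2.16 at day 10 and was not well above background on any later array, where its levels ran from -9.08 through -8.64 to -6.82. Taking for each later array the higher of the dimmest signal counted as above background and the probe's own, it was at least 13-fold higher at day 10 (adjusted p = 2.77e-05). That bound uses each array's own limit, while the common floor, set by the array with the highest limit, gave a difference of 1.98, or 3.95-fold (adjusted p = 0.00176). MMP9, the gelatinase that neutrophils and macrophages release, stood at 2.54, 0.33, 0.37 and 0.06 at day 10 and between -4.84 and -3.16 later, with a median of -4.03. Cow 1 stood well above the other cows, and all 4 cows were above every later array, with a difference of 4.83 ± 0.40 (adjusted p = 0.000157). MMP14, the membrane enzyme that activates MMP2 at the cell surface, was level across cows at -0.63, -0.11, -0.12 and -0.92 against -4.83 to -1.58 later, and differed by 2.89 ± 0.41 (adjusted p = 0.00517). In all, 6 of the 15 tested matrix metalloproteinases were higher (40%, against 3.59% of all genes) and 0 lower. The median was 1.85, and 5 or 6 were called with any cow left out. The other 9 did not pass the test, among them MMP7, a matrilysin of epithelium, with 4.06 (adjusted p = 0.094), MMP2 with 1.32 and MMP11 with 1.85.

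**Figure D3:**
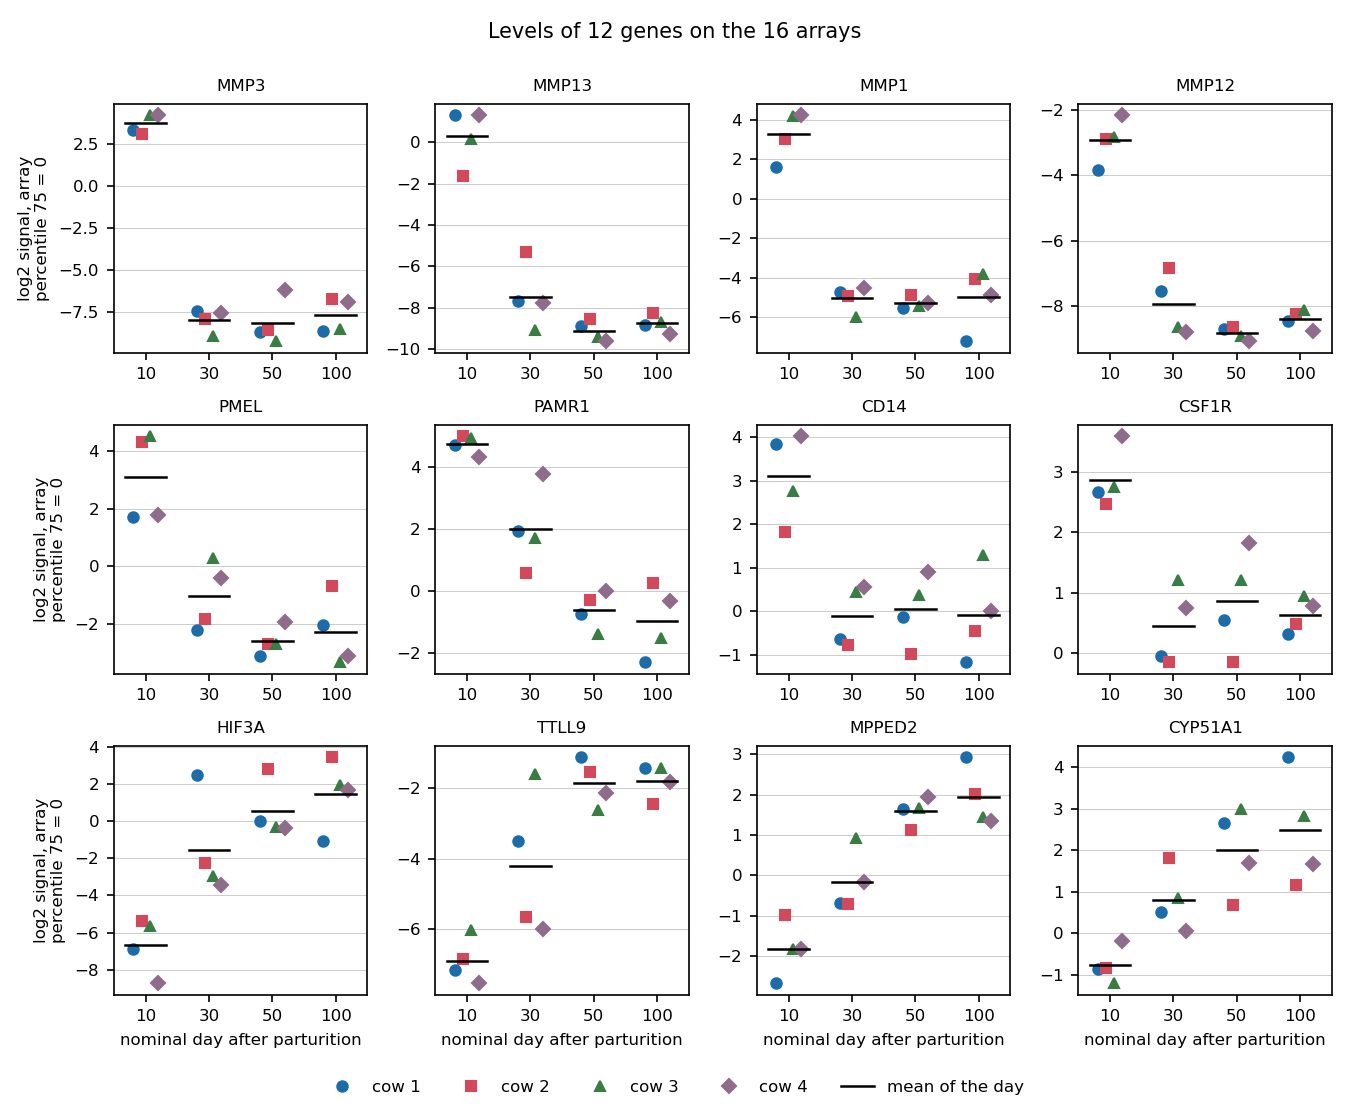
Log2 level relative to the array percentile 75 on each of the 16 arrays for 12 genes, by nominal day after parturition, with a marker for each cow and a bar at the mean of the day. MMP3, MMP13, MMP1, MMP12, PMEL, PAMR1, CD14 and CSF1R are higher at day 10 than on any later array, and HIF3A, TTLL9, MPPED2 and CYP51A1 are lower.

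The plasminogen system, which feeds the metalloproteinases by cleaving their proforms, contributed 3 of 9 tested genes (33.3%, against 3.59% of all genes), and 0 were lower. PLAU, urokinase, was 3.78, 3.05, 3.77 and 4.24 at day 10 against -0.56 to 2.98 later, a difference of 2.65 ± 0.43. Its receptor PLAUR was 0.74, -2.05, -0.81 and 1.67 against -4.84 to -1.73, so that cow 2 overlapped the later arrays, and differed by 3.12 ± 0.56. SERPINB2, an inhibitor of urokinase, differed by 3.64 ± 0.56 but was well above background on 1 later array only, and with the common floor the difference was 0.87 (adjusted p = 0.0933). The list had 3 calls without cow 2, 1 without cow 4 and 0 without cow 1 or cow 3. The inhibitors TIMP1, TIMP2, TIMP3 and TIMP4 did not pass the test, with differences of 1.07, 0.07, 0.53 and -0.96, and neither did tissue plasminogen activator, PLAT, with 0.35.

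Among genes of the matrix itself, PAMR1, a secreted protein with a serine protease fold, was 4.74, 5.02, 4.97 and 4.33 at day 10. On the later arrays it ran from -2.31 through -0.15 to 3.77. The 4 cows lay close together at day 10, and the pooled difference was 4.63 ± 0.49 (adjusted p = 0.00144). It was 2.76 against day 30, 5.37 against day 50 and 5.74 against day 100, and the unadjusted p of the F test among later days was 0.00076. TGFBI, a matrix protein induced by TGF-beta, was 4.05, 3.78, 2.98 and 3.37 at day 10 against -1.30 to 1.78 later, and differed by 3.01 ± 0.40. It too stood nearer to day 10 at day 30, with differences of 1.98, 2.98 and 4.06. TGFB2 itself was nearly equal in the 4 cows at day 10, from -0.99 to -0.67, and differed by 1.86 ± 0.30. Of 25 tested collagen chains, COL15A1 alone was higher (4%, against 3.59% of all genes), by 1.84 ± 0.46, and 0 were lower. The fibrillar chains COL1A1, COL1A2 and COL3A1 had differences of 0.29, 0.37 and 0.27 and did not pass the test. Of 34 matricellular proteins and proteoglycans SPP1, osteopontin, alone was higher (2.94%). It was -1.30, 2.75, 3.93 and 0.92 at day 10 against -4.23 to 1.18 later. Its top levels were in cows 2 and 3, and the difference was 3.51 ± 0.65. TNC, tenascin C, had a difference of 3.28 (adjusted p = 0.057).

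Macrophage genes were the list with the largest share called. Of 20 tested markers 17 were higher at day 10 (85.0%, against 3.59% of all genes), 0 were lower, all 20 had a positive difference, and the median was 2.15. The list level at day 10 was 1.55, 0.92, 1.5 and 2.17, above the -1.42 to 0.69 of the later arrays in all 4 cows. CD14, the co-receptor for bacterial lipopolysaccharide, was 3.83, 1.82, 2.76 and 4.02 against -1.17 to 1.28 later with a median of -0.06. No later array reached the lowest day 10 level, and the difference was 3.15 ± 0.37 (adjusted p = 0.00216), nearly equal against each later day at 3.21, 3.06 and 3.19. CSF1R, the receptor for the growth factor macrophages depend on, was 2.67, 2.47, 2.75 and 3.60 against -0.16 to 1.82 and differed by 2.23 ± 0.23 (adjusted p = 0.000999). The sialic acid receptor SIGLEC1 differed by 3.24 ± 0.45, the haemoglobin scavenger receptor CD163 by 2.89 ± 0.50 and the Fc receptor FCGR1A by 2.62 ± 0.37. TREM2, a lipid receptor of phagocytes, differed by 2.48 ± 0.37. The 3 markers that did not pass were LYVE1 at 0.25, MERTK at 0.34 and GPNMB at 1.56. The list had 14 calls without cow 2, 13 without cow 3 and 9 without cow 4, but 2 without cow 1.

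**Figure D4:**
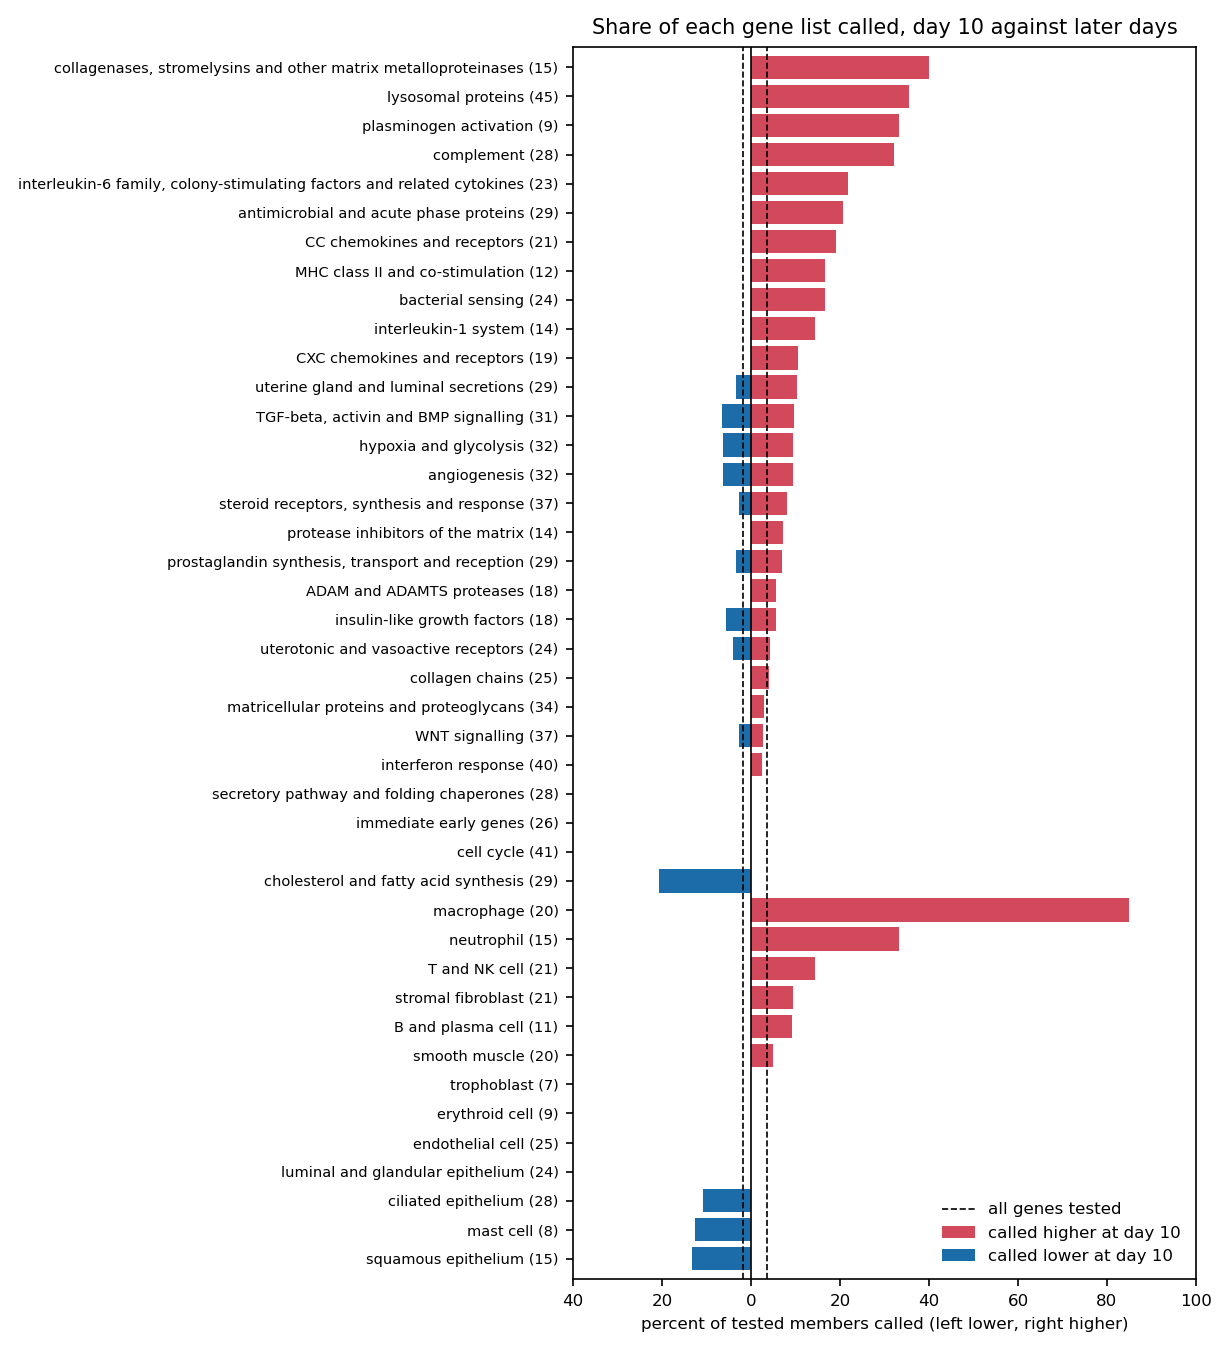
Percent of the tested members of each gene list called higher at day 10, to the right, or lower, to the left, with the number of tested members in brackets and dashed lines at the 3.59% and 1.73% called among all genes. Macrophage markers reach 85.0% on the right, followed by the matrix metalloproteinases at 40% and lysosomal proteins at 35.6%, and cholesterol and fatty acid synthesis at 20.7% reaches farthest to the left.

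Lysosomal proteins, the enzymes and pumps of the digestive compartment, were higher in 16 of 45 tested members (35.6%, against 3.59% of all genes) and lower in 0. The median was 0.85, against 0.01 over all genes, with 42 positive differences. ATP6V0D2, a proton pump subunit of macrophages and osteoclasts, had the largest difference of 2.69 ± 0.38. CD68, a membrane glycoprotein of macrophage lysosomes, differed by 2.16 ± 0.30, and CTSC, a cathepsin that activates granule proteases, by 2.06 ± 0.27. The collagen-degrading cathepsin CTSK was 4.17, 5.57, 5.58 and 4.29 at day 10 against 0.22 to 4.14 later. It was therefore highest in cows 2 and 3 and just clear of the later arrays in cow 1, with a difference of 2.13 ± 0.42. LAPTM5, a lysosomal protein of blood cells, was 3.64, 2.81, 3.29 and 3.96 against 1.27 to 2.37, and its differences against the later days were nearly equal at 1.69, 1.65 and 1.70. Calls fell to 1 without cow 1, to 8 without cow 2 and to 4 without cow 3 or cow 4. Ubiquitous members such as LAMP1 and LAMP2 had small differences of 0.52 and 0.31 that did not pass.

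Complement genes were higher in 9 of 28 tested members (32.1%, against 3.59% of all genes) and lower in 0, with a median of 0.92. The macrophage list also holds 4 of the 9, namely C1QA, C1QB and C1QC, the chains of the recognition molecule, with 2.13, 1.66 and 2.38, and VSIG4, a complement receptor, with 1.64. The integrin ITGAM was well above background on 2 day 10 and 2 later arrays, and its difference of 2.23 ± 0.36 was 0.01 with the common floor (adjusted p = 0.746). C2 had the largest difference of 3.40 ± 0.77 and overlapped the later arrays. The anaphylatoxin receptor C3AR1 was -0.48, -0.75, -0.39 and 0.77 against -3.54 to -1.05 and differed by 2.01 ± 0.28, and C5AR1 differed by 2.42 ± 0.55. The central component C3 had a difference of 2.24 (adjusted p = 0.11). The list had 6 calls without cow 2, 3 without cow 3 and 0 without cow 1 or cow 4. Of 24 genes of bacterial sensing 4 were higher (16.7%) and 0 lower, CD14, TYROBP, TLR7 with 2.24 ± 0.21 and TLR8 with 1.87 ± 0.33. There were 2, 5, 3 and 2 calls without cows 1 to 4. With the common floor TLR7 and TLR8 lost their calls, at 0.78 and 0.19 (adjusted p = 0.0709 and 0.287). These toll-like receptors recognise RNA, and the receptors for bacterial lipoproteins and lipopolysaccharide, TLR2 and TLR4, had differences of -0.01 and 0.91 that did not pass.

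In the interleukin-1 system 2 of 14 tested genes were higher (14.3%, against 3.59% of all genes), and 0 were lower. IL1RN, the secreted antagonist of the interleukin-1 receptor, was 2.91, 0.46, 2.05 and 3.12 at day 10 against -3.13 to 0.06 later with a median of -2.24. All 4 cows lay above the highest later array, cow 1 at day 100, and the difference was 4.02 ± 0.55 (adjusted p = 0.00437). The agonists IL1A and IL1B had differences of 2.70 and 2.20 that did not pass (adjusted p = 0.079 and 0.074). CC chemokines and receptors were higher in 4 of 21 members (19%) and lower in 0. CCL3, which attracts monocytes, was -2.59, -3.03, -1.69 and -3.08 against -5.85 to -4.0 and differed by 2.57 ± 0.30. CCL8 differed by 2.99 ± 0.56, CCL4 by 2.03 ± 0.35 and the receptor CCR1 by 2.13 ± 0.32. Of 19 CXC chemokines and receptors 2 were higher. CXCL8, the main neutrophil attractant, was 2.49, -2.77, -1.89 and 2.35 against -6.09 to -2.71, and CXCL9, induced by interferon gamma, was 2.00, -1.19, -1.35 and 2.29 against -4.16 to -2.0. In both genes cows 1 and 4 stood far above cows 2 and 3, and the differences were 4.99 ± 0.89 and 3.63 ± 0.64. Of 23 cytokines of the interleukin-6 and colony-stimulating group 5 were higher (21.7%) and 0 lower, with CSF2 at 4.31 ± 0.69, IL12A at 2.47 ± 0.47 and IL10, which restrains macrophages, at 0.93 ± 0.17. CSF2 was well above background on 1 later array, and with the common floor its difference was 1.63 (adjusted p = 0.0892). IL6 and TNF had differences of 1.97 and 1.18 that did not pass. Without cows 1 to 4 in turn the interleukin-1 system had 1 call each time, the CC list 1, 5, 3 and 2, the CXC list 0, 4, 1 and 0, and the interleukin-6 group 1, 4, 2 and 1.

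Antimicrobial and acute phase proteins were higher in 6 of 29 tested members (20.7%, against 3.59% of all genes) and lower in 0, with a median of 1.28. The calls were 5 without cow 2 and 0 without cow 1, cow 3 or cow 4. The epithelial beta-defensin TAP, tracheal antimicrobial peptide, was 5.74, -1.63, -0.57 and 5.24 at day 10 and between -9.14 and -0.12 later. Cows 1 and 4 were thus far above all later arrays and cows 2 and 3 within their range, with a pooled difference of 7.56 ± 1.16 (adjusted p = 0.00727). LAP, lingual antimicrobial peptide, with 3.70, -4.91, -5.32 and 4.19, and DEFB7 with 0.77, -2.18, -3.13 and 2.06 had the same order of cows. With the common floor LAP had a difference of 4.13 and lost its call (adjusted p = 0.119). S100A8, a calprotectin chain that neutrophils hold in large amounts, was 5.56, 0.04, -1.26 and 5.51 against -4.46 to 0.94 later. Cows 2 and 3 again lay within the later range, and the differences of S100A8, S100A9 and S100A12 were 4.71 ± 1.12, 4.64 ± 1.04 and 4.37 ± 0.93. Beta-defensins are near-identical gene copies, and how far these probes tell them apart was not tested.

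The neutrophil list shares 14 of its 24 genes with other lists, S100A8, S100A9 and S100A12 among them, so its values partly repeat those above. Its level at day 10 was 2.87, 0.57, 0.23 and 2.61, against -1.28 to 0.60 on the later arrays, so the levels of cows 2 and 3 reached no higher than the highest later array. Of 15 tested markers 5 were higher (33.3%, against 3.59% of all genes) and 0 lower. The median was 1.32, against 0.01 over all genes, with 15 positive differences. NCF4, a subunit of the oxidase that makes superoxide, was 2.51, 0.47, 1.01 and 2.34 against -2.08 to 0.19 and differed by 2.59 ± 0.37. The calls were 0 without cow 1, 1 without cow 2, 2 without cow 3 and 0 without cow 4. Cows 1 and 4, with the higher neutrophil levels at day 10, were also those with the higher epithelial and lower smooth muscle levels there, and the part of biopsy make-up in these differences was not tested.

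**Figure D5:**
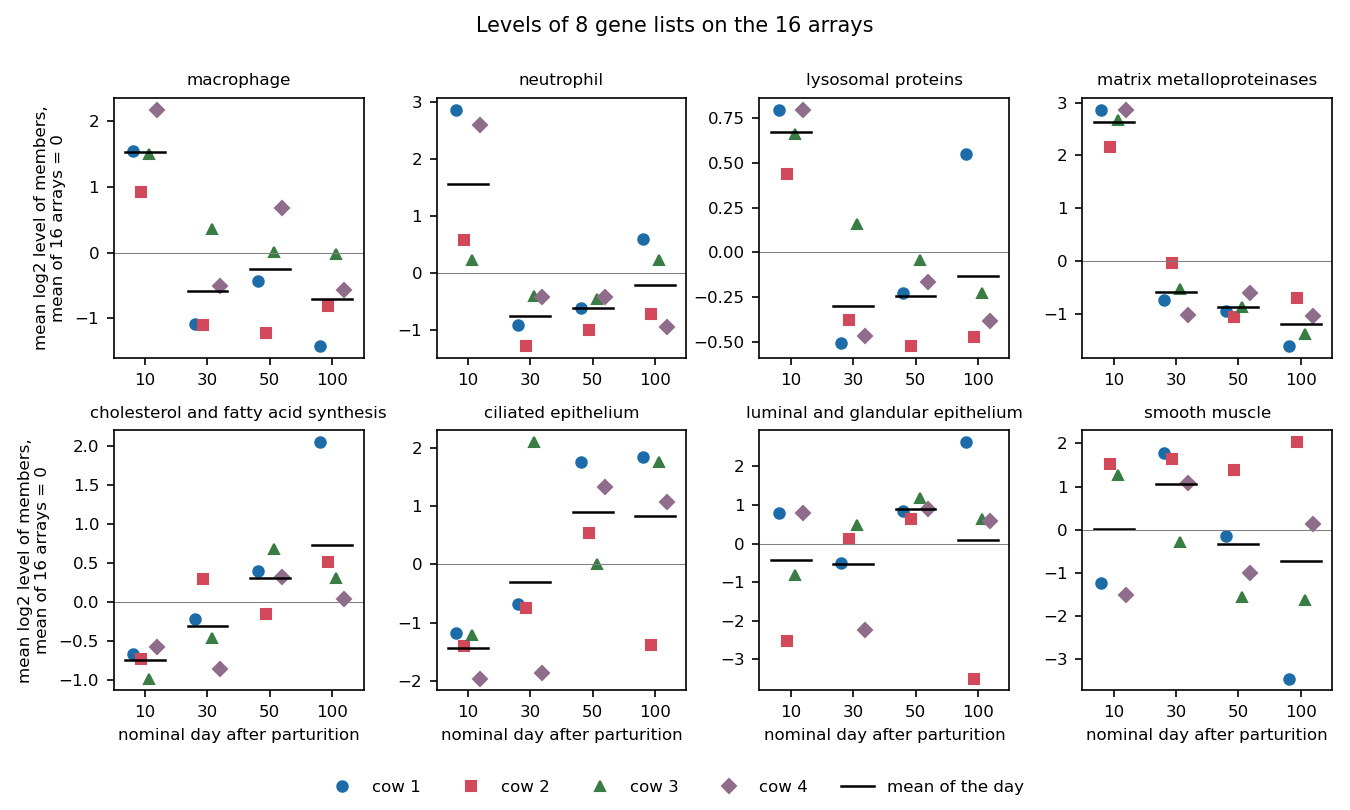
Level of 8 gene lists on each of the 16 arrays by nominal day, as the mean of the tested members relative to their 16-array means, with a marker for each cow. The macrophage level of all 4 cows at day 10, 0.92 to 2.17, lies above the later arrays, whereas the neutrophil level is 2.87 and 2.61 in cows 1 and 4 but 0.57 and 0.23 in cows 2 and 3.

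Other immune lists had 1 to 3 calls each, so their shares rest on few genes. The shares are to be read against 3.59% higher and 1.73% lower among all genes. Of 21 markers of T and NK cells 3 were higher (14.3%), NKG7 with 1.92 ± 0.32, IL7R with 1.75 ± 0.40 and CD4 with 0.69 ± 0.17. IL7R was well above background on 2 day 10 and 3 later arrays, and with the common floor its difference was 0.18 (adjusted p = 0.328). Meanwhile the T cell receptor chains CD3D, CD3E and CD3G had differences of -0.34, 0.60 and -0.13 that did not pass. CD4 is also made by macrophages in some species. Of 11 markers of B and plasma cells BANK1 was higher (9.09%), by 1.23 ± 0.26. Of 8 mast cell markers CPA3, a carboxypeptidase of their granules, was lower (12.5%), by 2.66 ± 0.61 on the log2 scale. CPA3 was well above background on 1 day 10 array, and with the common floor the difference was -1.15 (adjusted p = 0.0972). Of 12 genes of MHC class II and co-stimulation CD86 and CD40, which co-stimulate T cells, were higher (16.7%), by 1.95 ± 0.31 and 1.82 ± 0.43. All 12 had a positive difference and the median was 1.08. Of 40 interferon response genes IRF8, a transcription factor of myeloid cells, was the 1 called (2.5%), with 1.86 ± 0.30, and the list median was 0.11.

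Several of the largest differences lay outside these groups. TCN1, a vitamin B12 carrier of neutrophil granules and mucosal secretions, was 6.05, -0.86, -0.42 and 5.39 at day 10 against -7.14 to -2.41 later, with a difference of 7.58 ± 1.14 (adjusted p = 0.00657). The chloride channel regulator CLCA3 and the dicarboxylate transporter SLC13A2 were not well above background on any later array and were at least 16.2-fold and 21.7-fold higher at day 10 by each array's own limit. With the common floor the differences were 2.89 and 2.92 and both calls were lost (adjusted p = 0.118 and 0.0905). Their day 10 levels were 2.06, -6.13, -6.07 and -0.33 for CLCA3 and 1.24, -5.65, -4.43 and 0.12 for SLC13A2, so that, as in TCN1, cows 1 and 4 were the high ones. PLET1, an epithelial surface protein, had 2.15, -4.66, -1.64 and 1.87 and a difference of 6.47 ± 1.1.

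STAR, PMEL and CCKAR had the reverse order of cows. STAR, which carries cholesterol into mitochondria for steroid synthesis, was 1.75, 5.69, 6.07 and 1.74 at day 10 and -3.25 to 3.30 later. Cows 2 and 3 were above every later array, cows 1 and 4 were not, and the difference was 5.24 ± 0.98 (adjusted p = 0.0161), with 5.49 to 6.07 for the other 3 probes. PMEL, a fibril-forming protein known from pigment cells, was 1.72, 4.30, 4.51 and 1.79 against -3.32 to 0.30 with a median of -2.11. Here all 4 cows cleared the later arrays, and the difference was 5.05 ± 0.62 (adjusted p = 0.00275). CCKAR, a cholecystokinin receptor, was -0.44, 2.53, 2.65 and 0.77 against -9.02 to 2.22 and differed by 7.10 ± 1.00, with 4.49 against day 30, 7.97 against day 50 and 8.83 against day 100. NOS2 was -0.69, 0.79, 1.69 and 0.65 against -3.95 to -0.78 and differed by 2.84 ± 0.30 (adjusted p = 0.00129). In TRPA1, an ion channel of irritant-sensing neurons, cows 1 and 4 were again the higher. It was 0.13, -2.62, -0.41 and 1.68 against -7.93 to -3.27, a difference of 5.01 ± 0.46 (adjusted p = 0.000433). GNA14, a G protein subunit, was even across cows at 0.09, 0.38, 0.62 and -0.55 and differed by 3.16 ± 0.39, while FBLN7, a fibulin, was uneven at 3.2, -0.41, 0.12 and 1.94 and differed by 3.14 ± 0.79. Of the genes picked after their values were seen, RAB15, a GTPase of endosome traffic, was 2.85, 2.48, 2.10 and 2.05 against -0.52 to 1.24 and differed by 2.12 ± 0.22. MPEG1, a pore-forming protein of phagocytes, differed by 2.18 ± 0.24, and the sugar epimerase RENBP by 1.99 ± 0.25. The retinol dehydrogenase DHRS9, the sugar-phosphate transporter SLC37A2 and the inhibitory receptor VSTM1 differed by 2.10 ± 0.26, 2.08 ± 0.24 and 1.68 ± 0.22, and DHRS9 lost its call with the common floor, at 0.66 (adjusted p = 0.116), as TLR7 did.

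Among genes lower at day 10, HIF3A, a member of the hypoxia-inducible factor family that can oppose its relatives, had the largest difference of those below all 3 later arrays of the same cow in every cow. Its levels were -6.90, -5.38, -5.62 and -8.73 at day 10, well above background on 2 of 4 arrays, and -3.44 through -0.16 to 3.44 later. All 4 lay under the lowest later array, and the difference was -6.80 ± 1.02 (adjusted p = 0.00657), or -5.06 with the common floor. The other tested probes of the gene gave -1.80 to -0.89 and none was called, so the size belongs to this 1 probe. In its list of 32 hypoxia and glycolysis genes 3 were higher (9.38%, against 3.59% of all genes) and 2 lower (6.25%, against 1.73%). CA9, a carbonic anhydrase, was lower by 1.29 ± 0.24 on the log2 scale. The glucose transporter SLC2A3 and the glycolysis regulator PFKFB3 were higher by 1.36 ± 0.30 and 1.85 ± 0.39. The third higher gene, CA12, differed by 2.31 ± 0.49 but was well above background on 3 day 10 arrays and 1 later array. With the common floor its difference was 0.14 and its call was lost (adjusted p = 0.331). Without cows 1 to 4 in turn the list had 0, 1, 0 and 0 higher calls and 1, 1, 1 and 0 lower calls. HIF1A itself had a difference of 0.05.

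MPPED2 was -2.67, -0.98, -1.82 and -1.82 at day 10 and -0.70 through 1.39 to 2.93 later. All 4 cows were below every later array, and the difference was -2.94 ± 0.40 (adjusted p = 0.00413), with -1.66 against day 30, -3.41 against day 50 and -3.75 against day 100. Both other MPPED2 probes were called too. Of 37 WNT genes 1 was higher and 1 lower, 2.7% each way. Of 31 genes of TGF-beta, activin and BMP signalling 3 were higher (9.68%) and 2 lower (6.45%). The higher genes were TGFBI, TGFB2 and NOG. NOG differed by 2.23 ± 0.57, or 0.97 with the common floor, where it lost its call (adjusted p = 0.113). The 2 lower genes, CRIPTO and FST, lost their calls with that floor too. Without cows 1 to 4 in turn this list had 0, 3, 1 and 1 higher calls and 0, 1, 0 and 0 lower calls. Among all genes 3.59% were higher and 1.73% lower. WNT2B, a WNT ligand, was -3.83, -4.70, -1.86 and -3.81 against -2.53 to 2.03, and cow 3 overlapped the later range. The differences were -4.04 ± 0.77 for WNT2B and -3.90 ± 0.90 for GLI1, the transcription factor that reports hedgehog signalling. CRIPTO, a co-receptor for nodal, was -6.82, -5.52, -6.66 and -3.90 against -4.98 to 5.28, with a difference of -6.89 ± 1.52 (adjusted p = 0.0296), or -5.83 with the common floor (adjusted p = 0.072), and the activin-binding protein FST differed by -2.17 ± 0.50. IGF2 was among the brightest of these probes, at 3.43, 3.13, 4.65 and 3.71 against 4.25 to 6.0, and was lower by 1.64 ± 0.32 on the log2 scale. H19, the noncoding RNA transcribed next to IGF2, was -3.50, -2.69, -0.87 and -2.38 against -1.09 to 2.35 and differed by -3.33 ± 0.63. In both genes cow 3 was the highest at day 10 and the 1 that overlapped the later arrays. Of the vascular growth factors, PGF differed by -2.29 ± 0.44, but the value was -0.52 against day 30 and -3.10 and -3.24 against days 50 and 100. The array of day 10 was the lower in 10 of 12 within-cow comparisons of PGF, and 0 of its other probes were called. VEGFD differed by -2.74 ± 0.53, or -1.61 with the common floor (adjusted p = 0.125), while VEGFA had a difference of 0.13.

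Further genes lower at day 10 were chosen by the size of their difference. MEP1B, a meprin protease of brush borders, was -7.05, -6.33, -5.71 and -6.53 at day 10 against -6.12 to 4.30 later and differed by -6.02 ± 1.52 (adjusted p = 0.0476), with -2.32 against day 30 but -7.63 and -8.10 against days 50 and 100. F10, coagulation factor X, SUSD2, a membrane protein, and PI15, a secreted protein, differed by -4.21 ± 1.00, -4.50 ± 1.07 and -4.02 ± 0.72. KRT24, a keratin, differed by -5.47 ± 1.05 and was well above background on 1 of 4 day 10 arrays. The retinol-esterifying enzyme LRAT and the oxysterol hydroxylase CYP39A1 differed by -3.54 ± 0.88 and -3.51 ± 0.67. LRRC17, S1PR3, a sphingosine phosphate receptor, and SV2B, a vesicle protein, differed by -2.74 ± 0.50, -2.67 ± 0.50 and -3.08 ± 0.69, and GAT by -4.84 ± 1.14. KCNMB2, a potassium channel subunit, and PDCL2 were not well above background on any day 10 array and were at least 6.36-fold and 4.75-fold lower there by each array's own limit. With the common floor MEP1B, KRT24, GAT, PI15, KCNMB2 and PDCL2 lost their calls, with differences of -4.68, -2.77, -3.51, -2.80, -1.87 and -1.43 (adjusted p from 0.0629 to 0.181).

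Of genes of motile cilia 28 of 28 tested had negative differences, with a median of -1.65 against 0.01 for all genes. At day 10 only 8 of the 28 were well above background on all 4 arrays, so most passed the filter through the later days, and the median was -0.86 with the common floor and -0.94 with normexp. Calls were made for 3, TTLL9, CFAP47 and CCDC39 (10.7% lower, against 1.73% of all genes), and 0 were higher. TTLL9, which modifies axonemal tubulin, was -7.16, -6.86, -6.02 and -7.54 at day 10 and -6.01 through -1.99 to -1.13 later, with a difference of -4.28 ± 0.56 (adjusted p = 0.00367), or -2.45 with the common floor. It was well above background on 1 of 4 arrays at day 10 and on all 12 later, and the lowest later level was next to the highest at day 10. CFAP47 was -5.88, -2.81, -2.92 and -8.70 against -2.41 to 1.76 and differed by -4.61 ± 0.93, but its other probe gave -1.76 and was not called. The axonemal genes DAW1 and CLXN, named by their size of difference, differed by -5.04 ± 1.21 and -3.77 ± 0.70. With the common floor DAW1, CLXN and CCDC39 lost their calls, at -2.80, -1.92 and -0.62 (adjusted p = 0.118, 0.132 and 0.326). FOXJ1, the master regulator of motile cilia, had a difference of -1.28 (adjusted p = 0.21). The list level was -1.17, -1.39, -1.21 and -1.96 at day 10 and -1.87 to 2.10 later, so single later biopsies reached the day 10 levels. Without cow 2 there were 4 calls, without cow 3 or cow 4 there was 1 and without cow 1 there were 0. The general epithelial list had a median of -0.62 with 20 of 24 negative and 0 called, and its part in the cilia values was not tested.

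Cholesterol and fatty acid synthesis was lower in 6 of 29 tested genes (20.7%, against 1.73% of all genes) and higher in 0. There were 26 negative differences, and the median was -0.83 against 0.01 over all genes. The 6 encode enzymes of the route to cholesterol, from the making of HMG-CoA onward. CYP51A1, the lanosterol demethylase, was -0.87, -0.83, -1.21 and -0.19 at day 10 and 0.06 through 1.68 to 4.24 later. All 4 cows lay below the lowest later array, and the difference was -2.53 ± 0.52 (adjusted p = 0.0227). HMGCS1, which makes HMG-CoA, was tight at 0.04, 0.15, -0.08 and 0.23 against 0.72 to 3.69 and differed by -1.83 ± 0.36. IDI1, SQLE, MSMO1 and FDFT1 differed by -2.16 ± 0.44, -2.06 ± 0.49, -1.98 ± 0.36 and -1.53 ± 0.31. In CYP51A1, HMGCS1, IDI1, SQLE and MSMO1 no later array was as low as any day 10 array. For HMGCS1 the values were -1.13 against day 30, -1.77 against day 50 and -2.60 against day 100. There were 6 calls without cow 2 and 0 without cow 1, cow 3 or cow 4.

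Lists tied to uterine function had few calls, to be read against the 3.59% higher and 1.73% lower among all genes. Higher calls made up 10.3% of the secretions, 6.9% of the prostaglandin, 4.17% of the uterotonic and 8.11% of the steroid list. Lower calls made up 3.45%, 3.45%, 4.17% and 2.7% of them. Of 29 gland and luminal secretions PLET1, SPP1 and STC1 were higher and IGF2 lower, with a median of 0.49. STC1 was higher at day 10 in 10 of 12 within-cow comparisons and overlapped the later arrays. Of 29 genes of prostaglandin synthesis, transport and reception ALOX5, which starts leukotriene synthesis, and TBXAS1, thromboxane synthase, were higher by 2.34 ± 0.38 and 1.89 ± 0.48. HPGD, which inactivates prostaglandins, was -0.98, -3.88, -2.23 and -0.95 at day 10 against -3.27 to 3.04 later and differed by -2.60 ± 0.56. It overlapped the later arrays, and the difference was -0.01 against day 30 but -4.35 and -3.43 against days 50 and 100. PTGS2, the inducible cyclooxygenase, had a difference of 1.42 that did not pass. Of 24 uterotonic and vasoactive genes the endothelin receptor EDNRB differed by 2.44 ± 0.47 and the ligand EDN3 by -2.30 ± 0.48. EDNRB was well above background on 4 of 12 later arrays, its difference was 0.96 against day 30, and with the common floor it was 0.61 and not called (adjusted p = 0.133). The oxytocin receptor OXTR had a difference of 3.01 (adjusted p = 0.067). Among 37 steroid genes HAND2, a progesterone-regulated factor of stroma, and NCOA3, a receptor coactivator, were higher with STAR, by 2.10 ± 0.35 and 1.01 ± 0.25, and HSD17B4 was lower by 0.79 ± 0.20 on the log2 scale. The receptors ESR1 and PGR had differences of 0.65 and 0.58 that did not pass.

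Several lists gave no call. None of 41 cell cycle genes, 26 immediate early genes, 28 secretory pathway genes, 25 endothelial markers, 24 epithelial markers or 9 erythroid markers passed in limma's test. Their medians were 0.34, 0.56, 0.21, 0.20, -0.62 and -0.64, and 10, 6, 4, 2, 1 and 3 of their members had an unadjusted p under 0.05. Of 31 trophoblast genes on the array 7 were tested and 0 called, 2 with an unadjusted p under 0.05, with list levels at day 10 of 0.60, -0.45, -0.09 and 0.70 against -0.60 to 0.98 later, so the day 10 levels lay within the later range. Single calls were also made among 18 ADAM proteases, where ADAM9 was higher by 1.71 ± 0.32, and among 37 WNT genes, where WNT2 was higher by 2.21 ± 0.57 beside the lower WNT2B. Among 20 smooth muscle markers ITGA8 was higher by 2.69 ± 0.62. Higher calls made up 5.56%, 2.7% and 5% of these lists, against 3.59% of all genes. Of 21 fibroblast markers HAND2 and PDGFRB were higher (9.52%), the latter by 1.80 ± 0.41. Near 0, the sign of a list median depended on the scaling: under normexp it turned negative for ADAM proteases, collagens, cell cycle, WNT, interferon, endothelial, B cell and trophoblast genes, at -0.13, -0.05, -0.17, -0.14, -0.01, -0.07, -0.18 and -0.21.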

How the data were processed

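The authors deposited Agilent scanner files with linear intensity values for 45220 spots per array, 43803 of them not controls. Per the file headers these were background-subtracted and detrended by Agilent Feature Extraction 11.5.1.1, while the submitters' processing notes name version 10.5.1.1. The deposited files also hold columns, unit other, that mark spots as well above background, saturated or nonuniform. Nonuniform spots, 7 to 128 per array, were left out, and no spot was saturated. Levels are log2 processed signals relative to the array's percentile 75, and spots of a probe were averaged, giving 43653 probes.

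Probes had to be well above background on 4 or more of the 16 arrays, which 33174 were and 10479 were not. The model, in limma 3.58.1 under R 4.3.3, had day and cow as terms. The contrast was day 10 minus the mean of days 30, 50 and 100, two-sided. P-values were adjusted by Benjamini-Hochberg across every tested probe, and an adjusted p under 0.05 was a call. Of these probes 1587 were called (4.78%), and 7979 had an unadjusted p under 0.05. The median standard error was 0.30. The fit was tested on simulated data with 200 changed probes. A gene is represented by its tested probe of the highest mean level, for 12921 genes with a symbol. Names came from accessions for 22202 probes, gene IDs for 1171, current symbols for 9849 and synonyms for 372 in the reference table of assembly ARS-UCD2.0, and 10059 probes had no match. Where the probes lie relative to exons was not analysed here.

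The cow numbers in the labels mark the same animal on every day, so the block pairs arrays by animal. Departures from the day means had a median correlation of 0.12 (-0.13 to 0.51) for the 24 array pairs of the same cow. For the 72 pairs of different cows on different days it was -0.04 (-0.49 to 0.30). Pairs of the same cow also shared a slide, so these values cannot tell animal from slide.

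The comparison, the 42 gene lists (29 of pathways, 13 of cell types) and the naming rule were chosen with earlier results of these data known. Named were the 15 largest differences in each direction among called genes that differed the same way in all 12 within-cow comparisons, the 10 largest in each direction of those well above background on all 16 arrays, and up to 6 called members of each list. Genes called with every cow left out, and list members that did not pass, are named beyond that rule. The authors' deposited value table on a log2 scale, centred per probe, correlated with the equally centred scanner values at 0.9998 to 1.0000 on each array, and its column medians ran from -0.16 to 0.22. It served as an alternative, as did other normalizations, filters, models, days and arrays left out.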

Additional observations from a re-analysis of the deposited data

Results flagged for a closer look

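In 24 of 596 groups of 4 arrays of a day, 1 array lay far from the other 3. Chance gives about 1 in 20, so the share flagged was no higher than chance gives. On the day 10 array of cow 1, MMP9 stood at 2.54 against 0.06 to 0.37 in the other cows. KCNMB2 stood at -7.14 against -9.29 to -9.03 and PDCL2 at -7.00 against -9.26 to -8.96. KCNMB2 and PDCL2 were not well above background on any day 10 array. The cow 1 array had a smallest processed signal of 6.99, against 1.67 to 2.03 on the other day 10 arrays. Dim probes thus have a higher lower limit there. Cow 2 at day 10 stood apart for ITGAM, at -6.52 against -5.03 to -4.86, and for CA9, at -1.25 against -0.49 to -0.42. At day 30 the array of cow 3 stood apart for NKG7 at 1.67, C1QA at 3.59 and PYCARD at 0.0028, that of cow 2 for SQLE at 3.38 and COL15A1 at 0.44, and that of cow 1 for IL10 at -5.27. In SQLE the other cows ran from 1.37 to 1.56.

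At day 50 the array of cow 2 was the one apart in 6 genes, namely HIF3A at 2.79 against -0.40 to -0.01, GLI1 at -0.10, BANK1 at -4.65, STAR at -1.83, RAB15 at -0.52 and DHRS9 at -7.18. KCNMB2 was -4.36 in cow 4, ADAM9 -5.88 in cow 3 and EDNRB -7.48 in cow 1. At day 100 MEP1B was -5.54 in cow 2 against 3.86 to 4.30 in the other cows, IL1RN was 0.061 and ANGPTL2 was -1.39 in cow 1. The T and NK cell list level was -1.37 in cow 2 at day 100 against 0.27 to 0.48 in the others.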

How the results depend on the processing

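Of 136 named genes, 17 kept their direction and their call under all 36 alternatives. Over all genes and alternatives, 3697 values kept both, 1186 kept the direction but missed the threshold, and 0 reversed. Against 1587 probes called, 482 of them lower at day 10, the 4 within-cow differences alone gave 465 (284 higher and 181 lower), array weights 4423 (2582 and 1841), no day 50 arrays 193 (182 and 11), and no day 100 arrays of cows 1 and 2 gave 3353 (1948 and 1405). Without a replicate block for cow there were 1362, or 4.11%, with 937 and 425. Normexp gave 582 higher, or 47.9% of its calls against 69.6%, and moved the median difference of all probes by -0.16, quantile normalization gave 734 lower, and 59.4% higher, no filter 315 lower, and no day 30 arrays 734 lower. Leaving out 1 cow gave 89 to 1094 called, 74 to 733 higher and 15 to 361 lower, and leaving out 1 array gave 236 to 2630, 204 to 1570 and 32 to 1101. Among the later days 0 probes differed, against 1 with normexp, 9 without day 100, 36 without the day 100 arrays of cows 1 and 2, and 0 to 17 with 1 array left out. The common floor and the refit without those 2 arrays were chosen after seeing the data, and the cause of these changes was not tested. In the 4 within-cow differences, 84 of the 464 genes called higher and 50 of the 223 called lower kept their call. The macrophage list had 8 calls there and the lysosomal list 3. All 21 genes called with each cow left out were called there too. They had been selected on refits of these same arrays, so this adds no separate support for them. With 4 cows, and each cow on its own slide, the number of animals limits every call. Dim probes limit the size of the largest folds, with MMP3 at 11.64 from measured values and 8.60 with a common floor.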
